A study of Mus musculus with 116 samples.

Results

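The cytosolic ribosomal protein genes were followed in sorted mouse cortical cells with and without EED. They were taken as the protein-coding genes whose symbol starts with Rpl or Rps followed by a number (with or without a final a, x or y), plus Rplp0, Rplp1, Rplp2, Rpsa and Rps3a1. This gave 77 genes, 46 of the large and 31 of the small subunit, of the 53379 genes counted. No measured value entered the choice. Each of the 77 genes had reads in every one of the 55 green libraries used. Fau, which encodes a ribosomal protein fused to a ubiquitin-like protein, and paralogs such as Rpl22l1 fall outside this naming rule and were kept as a separate list.

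The study asked whether EED, a core subunit of the Polycomb repressive complex 2 (PRC2) that methylates histone H3 on lysine 27, acts inside a cell or through the surrounding tissue. Mosaic analysis with double markers (MADM) colors sparse cells whose chromosomes recombined, here on chromosome 7, and RNA of these cells was sequenced in bulk with Smart-Seq2. The 116 libraries cover green, yellow and red cells of the neocortex at 4 ages, from E12.5 over E13.5 and E16.5 to P0, each from a pool of 2 to 3 cortices. Of 68 green libraries, 55 held at least 1000000 uniquely aligned reads that made up at least 60% of all reads, and only these were used. The paper also left out libraries for low correlation with their replicates or for many reads in the deleted part of Eed. Those 2 criteria were not applied here, so libraries with incomplete deletion may be among the 55.

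In control-MADM (MADM7-GT/TG;Emx1-cre, labelled wt) every cell was Eed+/+. In Eed-MADM (MADM7-GT/TG,Eed;Emx1-cre, labelled het) green cells were Eed-/- while most cells around them kept a functional copy. In cKO-Eed-MADM (MADM7-GT,Eed/TG,Eed;Emx1-cre, labelled cKO) all cells reached by Cre were Eed-/-. The Cre is driven from the Emx1 locus, which is active in the progenitors of cortical projection neurons and astrocytes, so that microglia, vessels and meninges keep EED. Green cells of all 3 paradigms share a pair of paternal copies of chromosome 7. The labels give the strain as CD1, where the paper describes a mixed background with C57BL/6. E12.5 held 5 libraries of control-MADM, 8 of Eed-MADM and another 4 from cKO-Eed-MADM. E13.5 held 2, 2 and 4 in this order, E16.5 held 3, 5 and 4, and P0 held 5, 9 and 4. The youngest cells went straight into lysis buffer and all older ones into an RNA extraction buffer, so that age and collection cannot be told apart at E12.5.

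A ribosome holds a single copy of nearly every ribosomal protein, and the transcripts of these genes are therefore made at related levels and tend to rise and fall together with the growth of a cell. Their transcription starts in a run of pyrimidines, the 5′ terminal oligopyrimidine (TOP) tract, through which mTOR controls their translation. When ribosome assembly falters, free Rpl5 and Rpl11 bind MDM2 and stabilize p53. In the cortex, dividing progenitors make ribosomes at a high rate, and the abundance of ribosomal protein transcripts is known to decline as cells differentiate.

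Depth set how finely these genes could be read. Reads assigned to genes ranged from 865832 to 2359317 per green library at E12.5, and from 2784557 to 7249098 at the later ages. The 77 genes together took 17773 to 133218 reads per library. Eed itself checked the labels: its mean was 11.8 counts per 1000000 reads on genes (CPM) in cKO-Eed-MADM and 29.7 in control-MADM at P0 (log2 fold change −1.32, adjusted p = 0.000378, edgeR quasi-likelihood test with Benjamini-Hochberg adjustment), and it was lower than in control-MADM at each age in both mutant paradigms, although past the threshold only at E16.5 and P0 in cKO-Eed-MADM and at P0 in Eed-MADM. Markers of cortical projection neurons were present, with a sum of 3907 to 7236 CPM in control-MADM at P0. P0 control-MADM replicate 5 stood apart from its group in ribosomal protein genes, mitochondrial ribosomal protein genes and respiratory chain genes, and the calls in ribosomal protein genes at P0 are given with and without it. No 2 libraries held identical counts.

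The levels of the 77 genes spread over a wide range although nearly all the proteins are used in equal numbers. Per kilobase of exon, the highest genes in control-MADM at P0 included Rplp1, an acidic protein of the stalk that recruits elongation factors, with 622 ± 204 CPM per kb (SD, n = 5), and Rpl4, a protein with a long loop into the peptide exit tunnel, with 507 ± 45.7. The lowest were Rpl24 with 2.64 ± 1.38, Rpl23a with 2.78 ± 0.82 and Rpl5, of the 5S particle, with 3.24 ± 0.84 CPM per kb. The ranges of Rplp1 and Rpl4 overlapped, and so did those of the 3 lowest. With the length of the principal transcript in place of all exons, Rplp1 moved to rank 7. The 10 highest genes held 58.7% of all ribosomal protein reads. Of the stalk, Rplp0, which anchors the other stalk proteins, had 468 ± 75.9 and Rplp2 had 101 ± 24.3 CPM per kb.

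This order of levels moved with how much of a gene is unique in the transcriptome. Mammalian genomes hold many processed copies of ribosomal protein genes, and the counts leave out every read that aligns to more than 1 place. GENCODE M21 names 287 pseudogenes after these 77 genes, and 76 of the 77 share at least 1 window of 50 bases with a pseudogene. The share of 50-base windows of a transcript found in no other gene had a median of 45.5%. The 34 genes with at least 50% unique windows had a median level of 76.5 CPM per kb and the 43 others one of 16.02. Across the 77 genes, which are not independent replicates, the correlation of level with uniqueness was 0.57 (Spearman's rho) and 0.58 (Pearson's r, log level), as a description. Rpl5 had 6.16% and Rps6, the substrate of S6 kinase, 15.4% unique windows, and both sat near the bottom of the order. Other genes went against this: Rpl35, with 4.91%, had rank 39 of 77, and Rpsa, with 56.0%, had rank 67. The part of left-out reads in these levels was not tested. Counted levels may therefore differ from transcript levels, and only the same gene is compared between groups below.

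**Figure D1:**
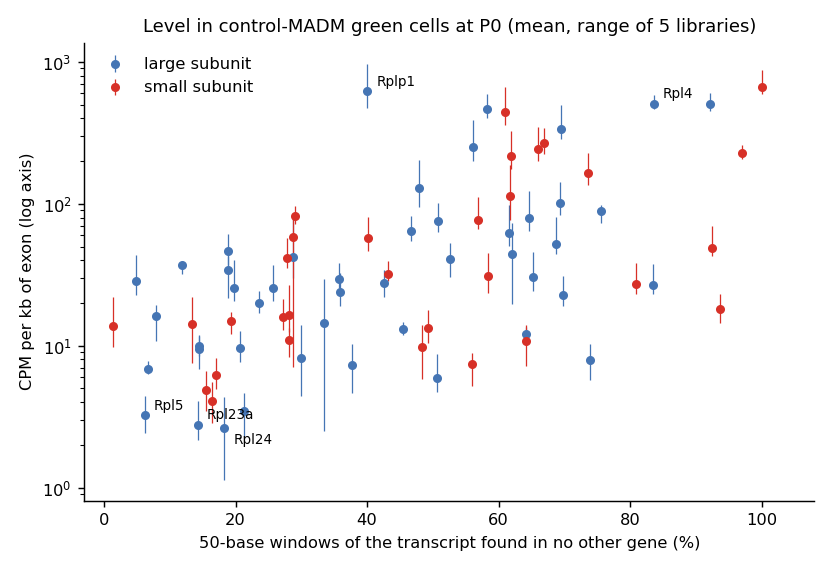
Level of each of the 77 ribosomal protein genes in control-MADM green cells at P0 (vertical axis, CPM per kb of exon, log axis; point, mean; line, range of 5 libraries) against the share of 50-base windows of its transcript found in no other gene (horizontal axis, %). Genes with few unique windows tend to lie low, with exceptions, and Rplp1, Rpl4 and the 3 lowest genes are named.

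A short element was more frequent in promoter sequences of these genes than in those of all genes. RefSeq windows of GRCm38.p6, from 250 bases before to 50 bases after an annotated start, were at hand for 57 of the 77 genes and for 27025 genes in all. CGGAAG, the core that transcription factors of the ETS family such as GABPA bind, was present on either strand in 70.2% of the 57 genes (40 genes) and in 18.8% of all genes. Within 40 bases before to 20 bases after the start the shares were 29.8% and 7.66%. The GC box GGGCGG was found in 61.4% against 38.2%, GATGGC, the core of the YY1 element, in 24.6% against 15.9%, CCAAT in 31.6% against 41.1% and TATAA in 28.1% against 28.0%. A run of at least 6 pyrimidines covered the annotated start in 33.3% of the 57 genes and in 8.48% of all genes, and one lay within 3 bases of the start in 45.6% and 19.3%. These shares describe letters in a window and not bound sites, and no set of genes of similar expression was counted beside them. The following stretches of 60 bases run from 40 before to 20 after the start. Rps3a1, Rps7, Rpl37 and Rpl6 were called lower in cKO-Eed-MADM at P0, and Rps6 was not called although the element is there. Rps12, with a positive fold change, holds the element in its window but outside this stretch. The same is true of Rpl4 and Rps3, which were called lower and are not shown. CGGAAG or its reverse complement is in capitals:

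Rps3a1, chr3:86142649-86142708, minus strand: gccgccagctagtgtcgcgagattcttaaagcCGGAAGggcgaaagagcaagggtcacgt
Rps7, chr12:28635934-28635993, minus strand: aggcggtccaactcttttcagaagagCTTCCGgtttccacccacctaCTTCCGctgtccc
Rpl37, chr15:5116573-5116632, plus strand: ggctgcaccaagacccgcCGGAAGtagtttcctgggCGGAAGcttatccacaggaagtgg
Rpl6, chr5:121204461-121204520, plus strand: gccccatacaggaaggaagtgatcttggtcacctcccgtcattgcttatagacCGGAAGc
Rps6, chr4:86857348-86857407, minus strand: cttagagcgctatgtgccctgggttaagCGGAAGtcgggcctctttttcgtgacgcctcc
Rps12, chr10:23787190-23787249, minus strand: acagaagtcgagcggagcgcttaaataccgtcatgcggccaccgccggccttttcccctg

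In Rps7 and Rpl37 the element occurs more than once in this stretch. For 2 other genes called lower, Rpl35 and Rpl18, which lack the element in this stretch, the run of pyrimidines is in capitals. It is 18 bases long and covers the annotated start in Rpl35, and is 10 bases long and begins just after it in Rpl18:

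Rpl35, chr2:39005112-39005171, minus strand: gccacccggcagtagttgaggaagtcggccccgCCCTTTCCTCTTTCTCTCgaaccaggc
Rpl18, chr7:45718031-45718090, plus strand: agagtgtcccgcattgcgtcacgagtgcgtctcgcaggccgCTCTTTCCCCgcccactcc

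Of the 57 genes, 8 were among those called lower in cKO-Eed-MADM at P0, of which 7 held CGGAAG anywhere in the 300 bases and 2 a pyrimidine run within 3 bases of the start. Of the 49 genes not called, 33 held CGGAAG and 24 such a run. Both sequences thus occurred among called and uncalled genes.

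In green cells, ribosomal protein genes took a falling share of the reads assigned to genes from E13.5 to P0. In control-MADM the share was 1.64% and 1.93% in the 2 libraries of E13.5, 1.18%, 1.28% and 1.51% in the 3 libraries of E16.5, and from 1.03% to 1.42% with a median of 1.04% in the 5 libraries of P0. In Eed-MADM it was 1.51% and 1.98% at E13.5, 0.984% to 1.44% with a median of 1.04% at E16.5, and 0.920% to 1.13% with a median of 0.997% at P0. In cKO-Eed-MADM it was 1.20% to 2.24% with a median of 1.36% at E13.5, 0.931% to 1.30% with a median of 1.08% at E16.5, and 0.899% to 1.10% with a median of 0.916% at P0. Both subunits had close to equal parts in it, with medians of 0.534% for the large and 0.519% for the small subunit in control-MADM at P0. At E12.5, where collection differed, the medians were 2.28% for control-MADM, 2.45% for Eed-MADM and 2.57% for cKO-Eed-MADM, with ranges that overlapped between all 3 paradigms. Red libraries of control-MADM had 1.22% at E13.5 (1 library) and medians of 1.14% at E16.5 and 1.18% at P0 (2 libraries each). Yellow libraries of Eed-MADM had medians of 1.07% at E13.5 and 1.16% at P0 (2 libraries each). These 2 sets thus showed little or no fall, while in the other yellow and red sets the P0 median was below that of E13.5. In bulk samples, fewer cells of a type and less RNA per cell cannot be told apart.

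**Figure D2:**
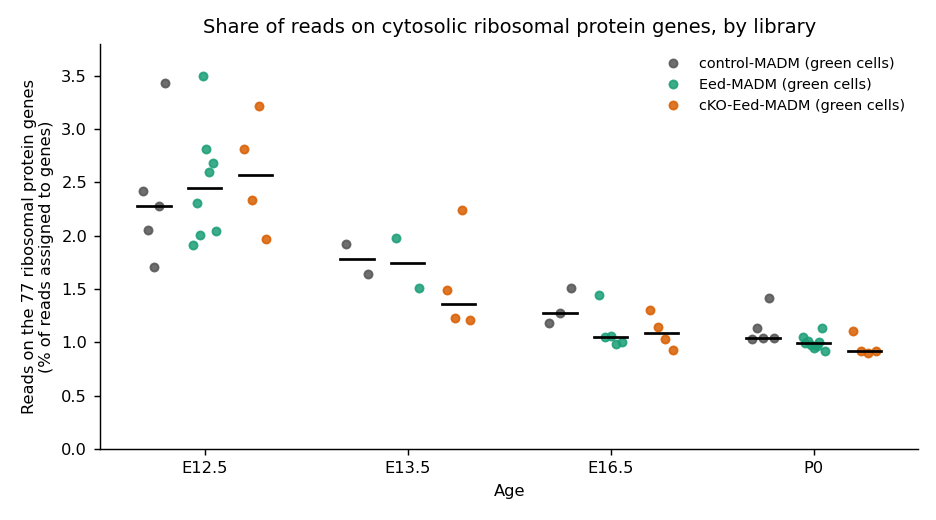
Reads on the 77 ribosomal protein genes as a share of reads assigned to genes (vertical axis, %) in each green library by age (horizontal axis); points are libraries and bars medians, colored by paradigm. The share falls with age in each paradigm, the P0 libraries lie between 0.899% and 1.42%, and control-MADM replicate 5 is the highest of them.

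Levels compared between ages come from a fit of all 55 libraries, so that their CPM differ slightly from those of the fits within an age. Gene by gene, the step from E13.5 to E16.5 was the larger one in Eed-MADM, where 19 of 76 genes tested fell and none rose (edgeR, adjusted p under 0.05; lower calls over all genes, 6.24%). The median log2 fold change of the 76 genes was −0.68 and that of all 13519 genes tested was 0.01. With DESeq2 19 genes were called as well. The 2 E13.5 libraries of Eed-MADM were those within the depth limits of 8 green ones, and with all green libraries 0 genes were called. They entered this result unequally: without E13.5 replicate 2 no gene was called, and without E16.5 replicate 1 there were 25. Of the 76 genes, 30 had every E16.5 library below both E13.5 libraries (39.5%), against 15.1% of all genes.

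Of the large subunit, Rpl14 had 270 and 175 CPM at E13.5 and 120, 120, 117, 109 and 109 CPM at E16.5 in Eed-MADM. No library overlapped between the 2 ages, and the log2 fold change was −0.95 ± 0.21 (SE; edgeR adjusted p = 0.00165). Rpl27, mutated in rare cases of Diamond-Blackfan anemia, had 123 and 89.9 CPM at E13.5 and 43.9 to 55.1 CPM at E16.5, a log2 fold change of −1.11 ± 0.31 (edgeR adjusted p = 0.0117). Rpl41, the smallest ribosomal protein, went from 744 and 436 CPM to between 247 and 368 CPM (log2 fold change −0.99 ± 0.25, edgeR adjusted p = 0.00506), and Rpl39, a small protein that lines the exit tunnel, from 95.7 and 59.7 CPM to between 28.5 and 56.4 CPM (−1.06 ± 0.33, adjusted p = 0.0264). In all 4 genes replicate 2 was the higher of the 2 libraries of E13.5.

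Of the stalk, Rplp2 fell from 450 and 327 CPM to between 185 and 274 CPM (log2 fold change −0.93 ± 0.28, edgeR adjusted p = 0.0215) and Rplp0 from 1337 and 887 CPM to between 501 and 772 CPM (−0.76 ± 0.25, adjusted p = 0.0369), while Rplp1, with −0.85 ± 0.31, missed the threshold (adjusted p = 0.0689). Of the small subunit, Rpsa, which also acts as a laminin receptor, had 53.5 and 36.4 CPM at E13.5 and 17.0 to 30.7 CPM at E16.5 (−0.98 ± 0.30, adjusted p = 0.0229). Rps20, a protein of the head, had 441 and 260 CPM against 143 to 243 CPM (−0.98 ± 0.28, adjusted p = 0.0175), Rps10 had 157 and 139 against 64.2 to 124 CPM (−0.89 ± 0.29, adjusted p = 0.0381) and Rps19, the gene most often mutated in Diamond-Blackfan anemia, had 632 and 368 against 264 to 318 CPM (−0.73 ± 0.24, adjusted p = 0.0331). In the called genes named here, the libraries of the 2 ages did not overlap. This was a condition for naming the genes of largest change, so it does not describe all genes called.

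In cKO-Eed-MADM the same step gave 6 genes called lower and none higher of 76 (lower calls over all genes, 4.22%), with a median of −0.41: Rpl27 (−0.96), Rpl8 (−0.87), Rpl14 (−0.65), Rpl41 (−0.65), Rps3 (−0.63) and Rpl13a (−0.59). Rpl8, close to the peptidyl transferase center, had 1180, 846, 1869 and 816 CPM at E13.5 and 808, 686, 606 and 478 CPM at E16.5 (± 0.25 SE, edgeR adjusted p = 0.0167). Without E13.5 replicate 3, whose ribosomal protein share was the highest of its group, no gene was called, and without replicate 5 there were 20. In control-MADM 1 of 76 genes was called (lower calls over all genes, 4.61%), with a median of −0.38: Rpl27a, a large subunit protein, had 66.2 and 58.3 CPM at E13.5 and 35.8, 30.5 and 36.9 CPM at E16.5 (−0.85 ± 0.25, edgeR adjusted p = 0.0225). There, 33 of 76 genes (43.4%) had every E16.5 library below both of E13.5, against 21.3% of all genes, and leaving out single libraries gave 0 to 7 calls.

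Markers of dividing and progenitor cells moved in the same step. In Eed-MADM 4 of 5 cycling cell genes and 6 of 8 radial glia genes fell (Top2a, which untangles DNA, by 3.15 and Hes1, a Notch effector, by 3.40 on the log2 scale), in control-MADM 5 of 5 and 5 of 8, and in cKO-Eed-MADM 5 of 5 and 2 of 8, where 1 radial glia gene rose. Beside lower calls over all genes of 6.24% in Eed-MADM, 4.22% in cKO-Eed-MADM and 4.61% in control-MADM, of 18 genes for translation factors and other proteins with TOP transcripts, 2 fell in Eed-MADM (Npm1, a nucleolar chaperone, −0.81 and Eef1d, a subunit of the elongation factor 1 exchange complex, −0.80), 1 fell in cKO-Eed-MADM and 1 rose in control-MADM. Of 45 ribosome biogenesis genes, 2 rose and 2 fell in Eed-MADM, with a median of −0.25. Of 77 mitochondrial ribosomal protein genes 7 fell in Eed-MADM, 3 in cKO-Eed-MADM and 0 in control-MADM. The part of cell composition in the fall of the ribosomal protein genes was not tested.

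From E16.5 to P0 the median fell again, by 0.27 in control-MADM, by 0.22 in Eed-MADM and by 0.27 in cKO-Eed-MADM on the log2 scale, with few single genes past the threshold. Control-MADM had 2 genes called lower of 76 (lower calls over all genes, 2.86%), Eed-MADM 4 (4.85%) and cKO-Eed-MADM 2 (3.85%), and none rose. Rpl13a, a large subunit protein that also acts in interferon-gamma dependent translational silencing, was called in each paradigm. It had 86.0, 93.2 and 86.8 CPM at E16.5 and 57.1, 59.1, 53.7, 69.0 and 45.6 CPM at P0 in control-MADM (−0.64 ± 0.19, edgeR adjusted p = 0.0272). In Eed-MADM it went from 65.8 to 90.3 CPM at E16.5 to 38.5 to 56.1 CPM at P0 (−0.59 ± 0.15, adjusted p = 0.00323), and in cKO-Eed-MADM from 91.4, 75.7, 60.3 and 43.0 CPM to 41.7, 45.8, 46.5 and 44.7 CPM (−0.60 ± 0.19, adjusted p = 0.0319). The 2 ages overlapped only in cKO-Eed-MADM, through 1 library of E16.5.

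The other genes called from E16.5 to P0 were Rpl7a in control-MADM (−0.81, edgeR adjusted p = 0.0494), Rpl35a (−0.69, adjusted p = 0.00752), Rpl29 (−1.38, adjusted p = 0.0426) and Rpl15 (−0.48, adjusted p = 0.0459) in Eed-MADM, and Rpl35 in cKO-Eed-MADM (−0.71, adjusted p = 0.0448). Leaving out single libraries left 0 to 3 genes in control-MADM, 2 to 4 in Eed-MADM and 0 to 3 in cKO-Eed-MADM. Rps3, a small subunit protein of the mRNA entry channel with a side role in DNA repair, shows the course of a well measured gene with 97.04% unique windows. In control-MADM it ranged from 1443 to 2772 CPM at E12.5 and from 1523 to 1682 CPM a day later, was 1191 to 1402 CPM by E16.5 and reached 907 to 1112 CPM by P0, with no call from E13.5 to E16.5 or from E16.5 to P0 (edgeR adjusted p = 0.47 and 0.35).

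**Figure D3:**
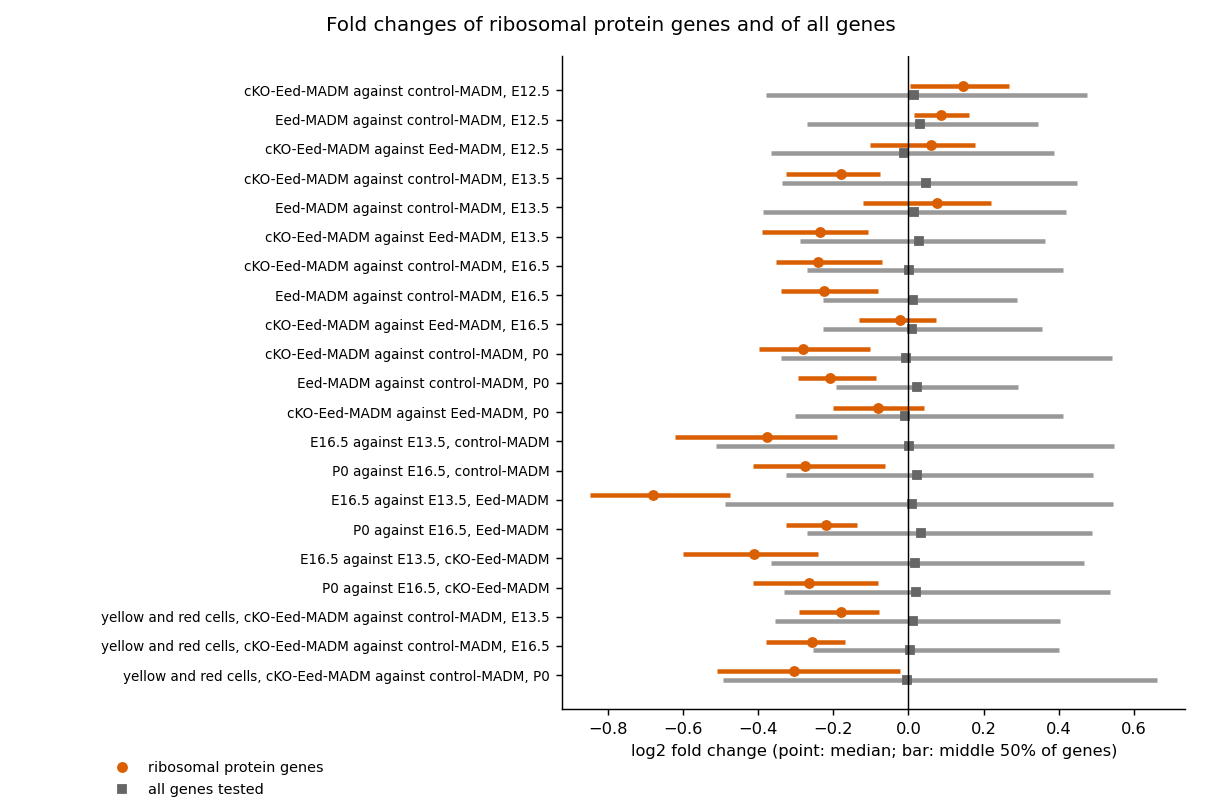
Median (point) and middle 50% (bar) of log2 fold changes (horizontal axis) of the ribosomal protein genes and of all genes tested in each of 21 comparisons (vertical axis), the first group named against the second. Medians of all genes lie near 0, and those of the ribosomal protein genes lie below 0 in each step of age and from E13.5 on in cKO-Eed-MADM against control-MADM.

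Loss of EED was compared with control-MADM at each age. At P0, 15 of the 77 ribosomal protein genes (19.5%) were lower in cKO-Eed-MADM than in control-MADM and none was higher (edgeR, adjusted p under 0.05; lower calls over all 14161 genes tested, 10.0%; higher calls, 14.2%). With DESeq2 there were 15 as well. The median log2 fold change was −0.28, a ratio of 0.823, against −0.01 for all genes, and 64 of the 77 genes lay below 0 (83.1%), against 50.5% of all genes. In 13 genes (16.9%) every cKO-Eed-MADM library lay below every control-MADM library, against 6.86% of all genes. Leaving out control-MADM replicate 5 left 5 genes (Rps27a, Rps14, Rpl32, Rps3a1 and Rps3) and a median of −0.15. Leaving out cKO-Eed-MADM replicate 3 or 4 left 3 or 6 genes, and in a fit of these 2 groups alone none passed, with adjusted p from 0.0553 to 0.134 for the same 15 genes.

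Of the small subunit, Rps27a, made as a fusion with ubiquitin, had 14.7, 13.7, 11.7 and 9.498 CPM in cKO-Eed-MADM and 16.3, 19.2, 22.8, 26.5 and 24.3 CPM in control-MADM, with no overlap (log2 fold change −0.82 ± 0.24, edgeR adjusted p = 0.0153). Rps14, a platform protein whose gene is lost in 5q- syndrome, had 402, 351, 315 and 357 CPM against 446, 493, 448, 782 and 422 CPM (−0.54 ± 0.15, adjusted p = 0.0109). The groups did not overlap, and replicate 5 of control-MADM was far above the rest. Rps7, a protein that takes part in the processing of the small subunit rRNA, had 81.7, 93.2, 68.5 and 78.3 CPM against 110, 109, 105, 162 and 93.7 CPM (−0.53 ± 0.16, adjusted p = 0.0194), so that the 2 groups nearly touched. Rps3a1, another platform protein, had 61.7, 66.2, 51.9 and 48.0 CPM against 71.0, 75.7, 82.9, 93.8 and 76.97 CPM (−0.49 ± 0.15, adjusted p = 0.0188). Here the groups did not overlap either.

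Rps3 had 902, 805, 720 and 770 CPM in cKO-Eed-MADM and 1068, 1016, 924, 1173 and 949 CPM in control-MADM (−0.36 ± 0.12, edgeR adjusted p = 0.0276). The groups did not overlap.

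Of the large subunit, Rpl35, at the exit of the peptide tunnel where the signal recognition particle docks, had 20.5, 26.6, 15.998 and 20.8 CPM in cKO-Eed-MADM and 32.3, 31.2, 28.3, 54.0 and 32.0 CPM in control-MADM (−0.77 ± 0.23, edgeR adjusted p = 0.0184). Only 4.91% of its windows are unique. Rpl37, a zinc-binding protein, had 59.0, 71.7, 51.9 and 56.3 CPM against 74.3, 76.4, 75.9, 136 and 76.97 CPM (−0.56 ± 0.19, adjusted p = 0.0321). Without replicate 5, the control libraries lay between 74.3 and 76.97 CPM. Rpl32, often used as a reference gene, had 253, 228, 214 and 209 CPM against 298, 294, 286, 480 and 275 CPM (−0.53 ± 0.15, adjusted p = 0.0096). The groups did not overlap. Rpl4 was called (−0.36, adjusted p = 0.0329) with 708 to 977 CPM against 932 to 1172 CPM. The remaining calls included Rpl18 (−0.47), Rpl6 (−0.43) and Rpl7 (−0.42), which are named here after their values were seen.

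**Figure D4:**
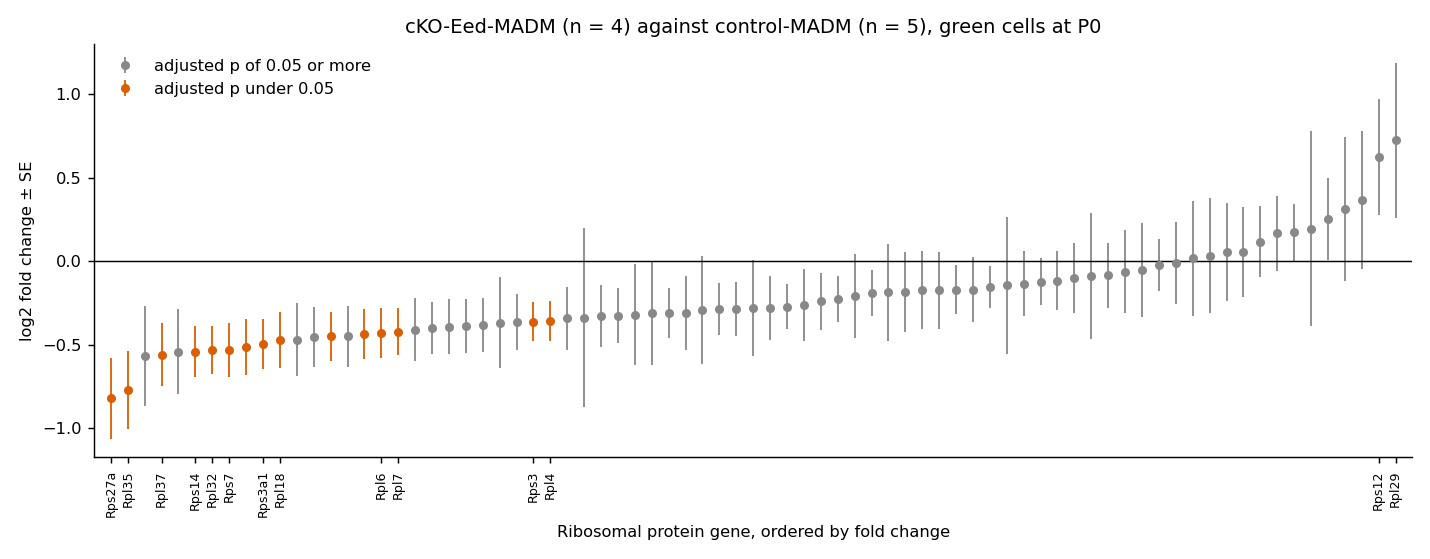
Log2 fold change ± SE (vertical axis) of each of the 77 ribosomal protein genes in green cells of cKO-Eed-MADM (n = 4) against control-MADM (n = 5) at P0, ordered by size (horizontal axis); orange marks adjusted p under 0.05, and names are given for called genes described in the text and for Rpl29 and Rps12. The 15 genes past the threshold lie between −0.82 and −0.36, and 64 of the 77 points lie below 0.

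Other genes with well known roles did not pass. In the stalk the log2 fold changes were −0.27 for Rplp0, −0.11 for Rplp1 and −0.28 for Rplp2 (edgeR adjusted p = 0.147, 0.685 and 0.195). In the 5S particle they were −0.31 for Rpl5 and −0.06 for Rpl11. Rps19 came closest with −0.40 (adjusted p = 0.0635), and its cKO-Eed-MADM libraries, with 253 to 294 CPM, all lay below those of control-MADM, with 314 to 527 CPM. Rpl38, which helps translate Hox transcripts in the embryo, had −0.47 (adjusted p = 0.127), Rps4x, the X-linked form of Rps4, −0.36, Rpl10, a late-joining subunit needed for subunit joining, −0.10, Rpl22, −0.22, Rpl39, −0.13, Rpl41, −0.28, Rpsa, −0.21, and Rps6, +0.03. The lowest genes, Rpl23a and Rpl24, had −0.34 ± 0.54 and 0.20 ± 0.58 at 1.09 to 4.52 CPM, where the SE exceeds the fold change. The highest values were those of Rpl29 (0.73 ± 0.46, adjusted p = 0.275) and Rps12 (0.63 ± 0.35, adjusted p = 0.201).

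The lower level did not sit in 1 class of ribosomal protein gene. The median was −0.21 in the 46 genes of the large subunit (8 called) and −0.33 in the 31 of the small subunit (7 called). It was −0.28 both in the 34 genes with at least 50% unique windows (8 called) and in the 43 others (7 called). It was −0.33 in the 24 genes of at least 100 CPM (8 called) and −0.21 below that. The 14 genes on chromosome 7, for which all green cells are disomic for the paternal copy, had a median of −0.36 (4 called). Differences between these classes were not tested.

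In Eed-MADM at P0 no ribosomal protein gene was called against control-MADM with edgeR or with DESeq2, while 18 of 77 had an unadjusted p under 0.05, all of them lower (23.4%). Over all genes 17.2% had such a p and 1.75% were called in either direction. The median was −0.21 against 0.02 for all genes, and 61 of the 77 genes lay below 0 (79.2%), against 47.4% of all genes. With each of the 18 libraries left out in turn, control-MADM replicate 5 and those of Eed-MADM included, there was still no call, and over these and the other settings tried the median lay between −0.25 and −0.11. Rps27a ranged from 12.3 to 21.4 CPM over 9 libraries with a median of 18.2 (−0.28 ± 0.19, adjusted p = 0.475), Rpl32 from 239 to 310 CPM with a median of 263 (−0.30 ± 0.12, adjusted p = 0.197) and Rps3 from 802 to 1046 CPM with a median of 879 (−0.19 ± 0.10, adjusted p = 0.318). The ranges of these genes overlapped with control-MADM and with cKO-Eed-MADM. Both comparisons use the same 5 control-MADM libraries. Set against each other directly, cKO-Eed-MADM and Eed-MADM had a median difference of −0.08, no call with either tool (calls over all genes, 19.5%) and 2 genes with an unadjusted p under 0.05 (all genes, 32.2%).

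At E16.5 the direction was the same but no gene passed with edgeR. Against control-MADM, 62 of 76 genes (81.6%) lay below 0 in cKO-Eed-MADM, against 49.9% of all genes, with a median of −0.24, and 10 had an unadjusted p under 0.05 (13.2%), against 20.0% of all genes. Over all genes 8.58% were called with edgeR, and DESeq2 called 2 ribosomal protein genes. In 6 genes (7.89%) the cKO-Eed-MADM libraries all lay below control-MADM, against 8.51% of all genes. Rpl4 had 881, 765, 751 and 725 CPM against 946, 976 and 1050 CPM (−0.34 ± 0.11, edgeR adjusted p = 0.0587). Rps3 had 739 to 1174 CPM against 1158 to 1368 CPM, ranges that overlapped (−0.39 ± 0.16, adjusted p = 0.181). In Eed-MADM 62 of 76 genes lay below 0 as well (all genes, 48.7%), with a median of −0.22, and none was called with either tool (calls over all genes, 0.255%), 9 having an unadjusted p under 0.05 (11.8%, against 10.5% of all genes). Between cKO-Eed-MADM and Eed-MADM the median difference was −0.02, with no call by either tool (calls over all genes, 7.04%) and 2 genes with an unadjusted p under 0.05 (all genes, 18.9%). The difference of the cKO-Eed-MADM effect between P0 and E16.5 was itself not significant for any of 76 genes with edgeR or DESeq2 (median difference 0.03, 1 gene with an unadjusted p under 0.05 against 7.01% of all genes, smallest adjusted p = 0.708; calls over all genes, 0.303%).

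At E12.5 and E13.5 no ribosomal protein gene was called in any of the 6 comparisons of paradigms with edgeR or DESeq2. Of 77 genes at E12.5, 2, 0 and 1 had an unadjusted p under 0.05 in cKO-Eed-MADM against control-MADM, Eed-MADM against control-MADM and cKO-Eed-MADM against Eed-MADM, and of 76 genes at E13.5 1, 0 and 1. Over all genes the shares with such a p were 7.08%, 3.78% and 7.27% at E12.5 and 10.3%, 6.13% and 5.0% at E13.5. The medians at E12.5 were 0.15, 0.09 and 0.06, so that they lay slightly above 0, and those at E13.5 were −0.18, 0.07 and −0.24. Over all genes, 0.0% were called in each comparison of E12.5 and 0.0372%, 0.0% and 0.0223% at E13.5, so that calls were as rare among other genes. Red blood cell genes reached a sum of 86494 CPM in a library of E12.5.

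Cells of the other 2 colors in cKO-Eed-MADM and control-MADM have the same Eed genotype as green cells and gave a second set of libraries. The labels do not say whether libraries of different colors came from the same pools of cortices. This set may thus not be independent of the green one, nor its yellow libraries of its red ones, although the fit counts each library as a sample. Yellow and red cells differ from green cells in their copies of chromosome 7, which carries 14 of the 77 genes. Red cells are disomic for the maternal copy. The colors were mixed unequally. At E13.5 there were 2 yellow and 2 red libraries of cKO-Eed-MADM and 1 of each color of control-MADM, at E16.5 2 red against 1 yellow and 2 red, and at P0 1 yellow and 2 red against 2 of each, so color was a term of the fit. In yellow and red cells the median of cKO-Eed-MADM against control-MADM was −0.18 for E13.5, −0.26 for E16.5 and −0.31 for P0. Single calls were rare. At E13.5 Rpl34, a large subunit protein, was higher, with 159, 99.3, 169 and 131 CPM against 43.9 and 53.8 CPM (1.52 ± 0.25, edgeR adjusted p = 0.0264; higher calls over all genes, 1.01%), and the call held without 1 of the 6 libraries only (yellow cKO-Eed-MADM replicate 1; adjusted p from 0.0192 to 0.135 over the 6). At E16.5 Rps2 was lower, with 11.7 and 28.5 CPM against 47.4 to 47.8 CPM (−1.25 ± 0.36, adjusted p = 0.0482; lower calls over all genes, 2.03%). Its call was lost without yellow control-MADM replicate 2 (edgeR adjusted p = 0.0539) or red cKO-Eed-MADM replicate 1 (0.193). Rps2 and Rpl34 were also among the most variable of these genes within groups of green libraries (SD 1.40 and 0.61 on the log2 scale). At P0 none was called with edgeR or DESeq2, 2 having an unadjusted p under 0.05 (all genes, 6.65%), and over all genes 0.00715% were called. The share of reads on ribosomal protein genes in red cells at P0 was 0.896% and 0.944% in cKO-Eed-MADM and 1.17% and 1.19% in control-MADM, so that the 2 groups did not overlap, while the 1 yellow library of cKO-Eed-MADM, with 0.964%, lay between those of control-MADM, with 0.672% and 1.33%.

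Genes of the wider translation machinery were read from lists, whose counts stand against 10.0% of all genes called lower and 14.2% called higher at P0. In cKO-Eed-MADM against control-MADM at P0, 3 of 18 translation factor and TOP genes fell and none rose: Eef2, which moves the ribosome along the mRNA (−0.41 ± 0.12, edgeR adjusted p = 0.0163), Eif3h, a subunit of initiation factor 3 (−0.40 ± 0.12, adjusted p = 0.0212) and Eef1a1, which brings in aminoacyl-tRNA (−0.35 ± 0.12, adjusted p = 0.0412). The list's median was −0.27, and its summed level was 4212 to 4932 CPM against 5237 to 5826 CPM, with no overlap. Control-MADM replicate 5, with 5512 CPM, lay within its group here. Of 45 ribosome biogenesis genes 4 fell and none rose, a share below that of all genes, with a median of −0.14: Mycn, a transcription factor that drives ribosome production in neural progenitors (−0.85 ± 0.20, adjusted p = 0.00262), Ubtf, a factor of RNA polymerase I (−0.50 ± 0.12, adjusted p = 0.00431), and the rRNA processing genes Rrp9 (−0.57) and Pes1 (−0.47). At E16.5, Mycn was already lower (−1.13 ± 0.14, adjusted p = 2.46e-05), as were Polr1d, a subunit of RNA polymerases I and III, Pabpc1, the poly(A) binding protein, and Eef1a1. All 18 translation factor and TOP genes then lay below 0.

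Of 77 mitochondrial ribosomal protein genes tested at P0, 11 fell, led by Mrpl34 (−0.81 ± 0.16, edgeR adjusted p = 0.000516), and 1 rose, with a median of −0.25. Of 71 nuclear genes of the respiratory chain 4 fell, with a median of −0.25. Without control-MADM replicate 5, where 10.6% of all genes were called lower, 6 mitochondrial ribosomal protein genes fell (median −0.15), as did 1 respiratory chain gene (median −0.14), 4 of the 18 translation factor and TOP genes (median −0.25) and 5 of the 45 biogenesis genes (median −0.14). Of the paralogs and fusion proteins outside the naming rule, Rpl22l1, the paralog that can replace Rpl22, rose (0.67 ± 0.24, adjusted p = 0.0432), and Rps27l, a p53-induced paralog of Rps27, had 0.35 and was not called. Of 12 p53 target and ribosomal stress genes 9 rose and 1 fell at P0, among them Cdkn1a, a cell cycle inhibitor (4.64 ± 0.42), Phlda3 (3.74 ± 0.31), Sesn2 (3.15 ± 0.32) and Eda2r (3.79 ± 0.46). In Eed-MADM at P0 the same lists had 0 of 18, 0 of 45, 3 of 77 (lower) and 1 of 12 (higher) genes called. Calls were rarer in that comparison, with 33 lower and 215 higher of all 14161 genes tested (1.75% in either direction). The lists were chosen with results of these data known and are descriptions.

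Marker genes of cell types also differed at P0. All 4 microglia genes tested of 5 were higher in cKO-Eed-MADM, and their summed level was 86.9 to 198 CPM against 6.33 to 15.3 CPM. All 4 meninges genes tested of 5 were higher, with 81.7 to 221 against 8.16 to 15.1 CPM. Of 8 projection neuron genes 5 were lower (summed level 1508 to 3584 against 3907 to 7236 CPM), as were all 5 cycling cell genes (112 to 127 against 209 to 321 CPM), while 3 of 8 radial glia genes were higher. Without control-MADM replicate 5, 4 microglia and 3 meninges genes were higher and 6 projection neuron and 4 cycling cell genes lower. Of 6 interneuron genes 4 were lower at P0 (168 to 244 against 363 to 882 CPM) and 5 higher at E16.5 (241 to 488 against 12.2 to 32.5 CPM). Of 5 tested red blood cell genes and 1 endothelium gene none was called. At E16.5, 2 of 3 microglia genes and 1 of 3 meninges genes were higher, at sums of at most 32.5 and 20.3 CPM in cKO-Eed-MADM. In bulk RNA, a change in the makeup of the sorted cells and a change of marker expression within cells cannot be told apart. The part of either in the lower level of the ribosomal protein genes was not tested.

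Among themselves, the ribosomal protein genes moved together from library to library. Each gene's log2 level was taken as a deviation from the mean of its group (age and paradigm) over the 55 green libraries. The correlation of these deviations with the mean deviation of the others had a median of 0.74, and 57 of 76 genes had more than 0.5. This is a description, since depth and composition also differ between libraries and were not removed. The correlation was not computed for other sets of genes, so it is not shown to be particular to this family. Rpl32 and Rps26 (0.93 each) were among the genes that followed the mean most closely. The median SD within groups was 0.352 on the log2 scale, against 0.528 for all genes tested. Genes were not matched for level, and Rpl24 (0.54) and Rps12 (0.59) lay above the median of all genes.

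Rps2 did not follow the others. For its deviations from the group means, the correlation with the mean of the others was −0.04, the lowest of the 76. Its SD within groups of 1.40 was the highest. Rps2, a small subunit protein of the mRNA entry channel, lies at chr17:24718116-24721929 on the plus strand (GRCm38). It ranged from 12.2 to 517 CPM over the 55 libraries, 42.2-fold, while Rps3 ranged from 731 to 3127 CPM, 4.28-fold. At P0 it had 12.6 CPM in control-MADM replicate 1 and 82.2 to 157 CPM in the other 4 libraries of that group. At E13.5 the 2 control-MADM libraries had 325 and 19.5 CPM. In 16 of the 55 libraries it was at or below 60 CPM, and in 9 at or below 20 CPM, and these libraries came from every age and every paradigm.

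Reads on the 10 pseudogenes named after Rps2 tended to be high where Rps2 was low. The 12.6 CPM of Rps2 in control-MADM replicate 1 at P0 stood beside 150 CPM on the pseudogenes, and the 12.2 CPM of cKO-Eed-MADM replicate 4 at E16.5 beside 140 CPM. The 186 CPM of control-MADM replicate 3 at E16.5 stood beside 6.78 CPM, and the 517 CPM of cKO-Eed-MADM replicate 5 at E12.5 beside 70.2 CPM. The order was not strict, since control-MADM replicate 1 at E13.5 had 325 CPM on Rps2 and 183 CPM on the pseudogenes. Only 28.7% of the Rps2 windows are unique, and 71 pseudogenes share the others. Rpl29, a heparin-binding large subunit protein that shares windows with 81 pseudogenes, was the next most variable gene (SD 0.94, 2.74 to 156 CPM), followed by Rpl26, which binds the p53 transcript (0.65), Rpl34 (0.61) and Rps12 (0.59). Fold changes of these genes in green cells rest on values that differ this much between replicates.

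**Figure D5:**
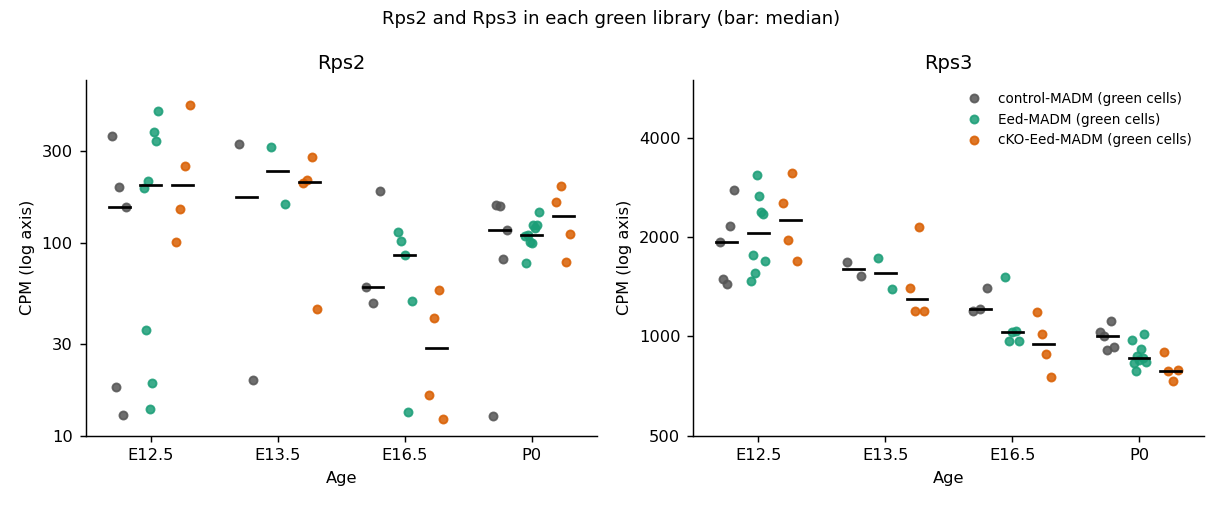
Level of Rps2 (left) and Rps3 (right) in each of the 55 green libraries (vertical axes, CPM, log axes with different ranges) by age (horizontal axis); points are libraries colored by paradigm and bars medians. Rps2 falls into libraries near 12 to 60 CPM and libraries up to 517 CPM within groups, while Rps3 varies less within a group and falls with age.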

How the data were processed

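Smart-Seq2 libraries of sorted cortical cells were sequenced in bulk. The authors aligned the reads with STAR to mm10 and deposited the whole-number counts per gene that STAR gives for uniquely aligned reads, without regard to strand for the values used here. The annotation release was not given in those sources. Identifiers of 53274 of 53379 genes matched GENCODE M21, which gave symbols, types and positions. Rows that name no gene were left out, and between 13.4% and 40.1% of unique reads per library lay on no gene or on several.

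Green libraries with at least 1000000 uniquely aligned reads that were at least 60% of all reads were kept (55 of 68). Genes with a mean count above 1 (E12.5) or 10 (later ages) were tested, 18100 at E12.5, 13448 at the next age, 13359 at E16.5, 14161 at P0 and 13519 across ages, of which 77, 76, 76, 77 and 76 were ribosomal protein genes. Counts were scaled by TMM and fitted with edgeR 4.0.16 (glmQLFit, robust) in R 4.3.3, all paradigms of an age in a fit (yellow and red libraries in fits of their own with color as a term), with Benjamini-Hochberg adjustment over all genes tested and a threshold of 0.05. The script was tested on simulated data. DESeq2 1.42.0, other scalings and filters, the replicate number as a block, other strand columns and leaving out each library were tried as alternatives. Replicate numbers were not used as pairs in the main fits. For no 2 paradigms of an age did every pair of same-numbered libraries deviate together with a correlation above 0.1. At P0 this correlation was −0.03 to 0.04 for control-MADM and cKO-Eed-MADM, −0.01 to 0.38 for control-MADM and Eed-MADM and −0.13 to 0.22 for Eed-MADM and cKO-Eed-MADM. The closest case was control-MADM and Eed-MADM at E12.5, with 3 of 4 pairs above 0.1. With so few pairs, this rule cannot exclude a partial pairing or a shared batch. Libraries are separate samples by their labels, and p-values measure the spread between them.

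Exact 50-base windows of M21 transcripts were compared between genes. Promoter windows came from RefSeq (GRCm38.p6), and motifs were searched on both strands. The text names every called ribosomal protein gene where there were 12 or fewer, otherwise the 8 with the largest change among those whose groups did not overlap. It also names 16 genes with known roles and the 3 highest and 3 lowest per kilobase of exon, and of each other list up to 4 genes with the lowest adjusted p. Values of some genes are not reported here, but counts and medians include them. The members and lists were chosen with earlier results of these data known.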

Additional observations from a re-analysis of the deposited data

Results flagged for a closer look

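Of 42 groups of 4 to 10 libraries tested, 9 held a library far from the rest by the ratio of its gap to the whole range (Dixon's 95% critical values), where chance gives about 1 group in 20. The share of reads on ribosomal protein genes set apart Eed-MADM replicate 1 at E16.5 with 1.44% (other libraries 0.984% to 1.05%), cKO-Eed-MADM replicate 1 at P0 with 1.10% (0.899% to 0.919%) and control-MADM replicate 5 at P0 with 1.42% (1.03% to 1.13%).

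The other 6 cases were genes named at P0, and in each the library was that same control-MADM replicate 5. It had 782 CPM of Rps14 (other control-MADM libraries 422 to 493), 480.4 of Rpl32 (275 to 298), 220.3 of Rpl7 (147 to 167), 162 of Rps7 (93.7 to 110), 136 of Rpl37 (74.3 to 76.97) and 54.0 of Rpl35 (28.3 to 32.3). The 6 genes share these libraries and are not independent. The same replicate had 6732 CPM on mitochondrial ribosomal protein genes, where the other control-MADM libraries had 4919 to 5016 CPM, and 75.6% of its reads aligned uniquely, against 79.3% to 79.6%.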

How the results depend on the processing

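Of 447 alternative values for the 22 counts of called ribosomal protein genes, 357 stayed within 1.5 times the count reported. At P0, cKO-Eed-MADM against control-MADM (15 genes) gave 21 at a threshold of 0.1, 16 and 13 with filterByExpr and with no filter, 11 with DESeq2 size factors and 10 on the second strand, but 7 with all green libraries, 0 in a fit of these groups alone and 0 with a replicate block (median −0.22, adjusted p of the called genes reported 0.0898 to 0.207). A pairing by replicate number was not excluded. Leaving out single libraries gave 3 to 18. The median stayed below 0 in all 29 fits. At E13.5 all green libraries gave 1 gene in cKO-Eed-MADM and 1 in Eed-MADM against control-MADM in place of 0. At E16.5, cKO-Eed-MADM against control-MADM gave 2 at a threshold of 0.1, 2 with DESeq2, 2 with no filter and 1 with these groups alone (0 to 4 with single libraries left out), and against Eed-MADM 1 with no filter. At P0, cKO-Eed-MADM against Eed-MADM gave 1 at 0.1 and 1 on the second strand (0 to 1 with single libraries left out).

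From E13.5 to E16.5, control-MADM (1 gene) gave 5 at 0.1, 2 with DESeq2, 2 with TMM without the ribosomal protein genes, 2 on the second strand, 3 with all green libraries and 0 with no filter or filterByExpr (0 to 7 with single libraries left out). Eed-MADM (19) gave 11 with filterByExpr, 13 with the replicate block and 0 with all green libraries (0 to 25). Under all green libraries Rps15a (0.0035) and Rps14 (0.0542) changed sign. cKO-Eed-MADM (6) gave 16 at 0.1, 3 with the replicate block and 0 with all green libraries (0 to 20). From E16.5 to P0, control-MADM (2) gave 1 with DESeq2, its size factors or filterByExpr and 0 with TMM without the ribosomal protein genes, no filter, all green libraries or the replicate block (0 to 3). Eed-MADM (4) gave 0 with all green libraries (2 to 4). cKO-Eed-MADM (2) gave 1 with TMM without the ribosomal protein genes, no filter, filterByExpr or the second strand and 0 with DESeq2 size factors, all green libraries or the replicate block (0 to 3). The difference between P0 and E16.5 gave 1 with no filter. In yellow and red cells E13.5 (1) gave 2 at 0.1 and 2 with DESeq2, and E16.5 (1) gave 3 at 0.1 and 2 with DESeq2. With single libraries left out they gave 0 to 2 and 0 to 3. Leaving out yellow and red libraries, and those of groups of more than 5, was chosen after seeing the data. The causes of these changes were not tested. Fits without a library that leave a group with 1 sample assume that it varies like the others.

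Unique alignment limits what can be said of levels of genes with many copies, and E13.5 is limited by the 2 libraries each of control-MADM and Eed-MADM.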

Other observations

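Of the genes next to the cytosolic family, those for nuclear subunits of the respiratory chain had a median log2 fold change of −0.43 from E13.5 to E16.5 in Eed-MADM (1 of 71 called lower), −0.37 in cKO-Eed-MADM (6 called lower) and −0.16 in control-MADM (0 called). The mitochondrially encoded genes did not share this course: of 7 tested none was called in Eed-MADM or cKO-Eed-MADM, and 1 was higher in control-MADM. At P0 in cKO-Eed-MADM against control-MADM, mt-Nd5, a subunit of complex I, was higher (0.50, edgeR adjusted p = 0.0175), while 4 of 71 nuclear respiratory chain genes were lower, Ndufs5 of complex I the most (−1.04, adjusted p = 0.0128). Without control-MADM replicate 5, 1 of the 71 was lower and 1 higher.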
